A study of Mus musculus with 4 samples.

Results

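Transcripts that handle stored and recycled cholesterol were compared between adrenal glands of wild-type mice and of mice without the V1a vasopressin receptor. The set holds 10 genes, named for their roles but chosen with earlier results of these data known. Plin2 stands for the lipid droplet coat, Soat1 for esterification, Lipe for ester hydrolysis and Scarb1 for uptake from high-density lipoprotein (HDL). Lipa, Npc1 and Npc2 stand for lysosomal release and export, and Abca1, Abcg1 and Apoe for efflux. Every probe set annotated to exactly 1 of these genes was taken, which gave 20 of the 45037 probe sets of the array, for 9 of the 10 genes. Soat1, the enzyme that esterifies cholesterol, had no such probe set in the annotation used, so its expression was not analysed here. A floor of 4 log2 units, to be met by 2 or more arrays, left 16 of the 20 to be tested, and each of the 9 genes had at least 1 of them.

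The glands came from male mice aged 2 months. The wild-type group (no allele or strain named in the labels) and the V1a knockout group (V1a_KO, with neither the deleted part of the gene nor the background strain given) each had 2 samples on 1 Affymetrix Mouse Genome 430 2.0 array apiece, and no treatment is named for either. Values are log2 expression units, and each difference is knockout minus wild type. The labels do not say that the samples were separate animals or pools, so the p-values speak of the scatter among these 4 samples alone, and that scatter may be technical. RNA was taken from the gland as a whole, so fewer cells of a type and less RNA per cell cannot be told apart.

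Cells of the adrenal cortex make steroids from cholesterol and keep a reserve of it as cholesteryl esters in lipid droplets. In rodents much of that cholesterol comes from HDL through the scavenger receptor SR-BI, the product of Scarb1, and is freed from esters by the neutral lipase that Lipe encodes. Cholesterol that arrives by endocytosis is freed in the lysosome by acid lipase, passed by NPC2 to NPC1 in the lysosomal membrane, and leaves cells through ABCA1 and ABCG1 to apolipoprotein acceptors.

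The 4 arrays were not equally alike. Across tested probe sets, which are not independent replicates, the correlation of wild-type array 1 with any other array was 0.919 to 0.924, while that of the remaining pairs was 0.974 to 0.986. Wild-type array 1 also carried hepatocyte markers: all 8 named markers of that list were highest there, with a summed level of 10.33 log2 units, while the other 3 arrays had 5.63 to 5.75. Adrenal identity was clear on all arrays, since the 8 measured adrenocortical markers had medians of 13.75 to 13.94 and the 8 chromaffin markers medians of 10.80 to 12.55. Avpr1a itself read 2.31 to 2.60 on its 2 probe sets, near the floor of the scale (2.30), and so checks neither genotype. For the genes of the set, the lists and the markers, values are given on all 4 arrays, and main differences, counts and medians also without wild-type array 1, a choice made for lists and markers after their values were seen.

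In the knockout glands the droplet coat gene Plin2, the lysosomal exporter gene Npc1 and the efflux genes Abca1, Apoe and, by a narrow margin, Abcg1 lay above both wild-type arrays, the HDL receptor gene Scarb1 lay slightly below both, and Lipe, Lipa and Npc2 overlapped. The highest fold difference was 2.26 in Plin2, and the median difference over the 9 genes was 0.30 log2 units, against -0.05 over all 10110 genes tested. With the brightest probe set standing for its gene, both knockout arrays lay above both wild-type arrays in 5 of the 9 genes, as in 17.1% of all genes tested, and below both in 1 of 9, as in 20.5% of all genes. Without wild-type array 1 the median was 0.49 against 0.04 over all genes, both knockout arrays lay above wild-type array 2 in 6 of 9 (43.4% of all genes) and below it in 1 of 9 (31.9%). None of the 16 probe sets passed an adjusted p of 0.05 in limma (smallest adjusted p = 0.763), nor did any of the 17228 tested probe sets (0%). At an unadjusted p under 0.05 limma had 2 of the 16 higher in the knockout, where 2.13% of all tested probe sets were, and 0 of the 16 lower, where 3.01% were. An exact permutation test of 2 arrays against 2 cannot give a two-sided p below 0.333. Because the set was chosen with earlier results of these data known, the counts and shares describe it and do not test it.

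**Figure D1:**
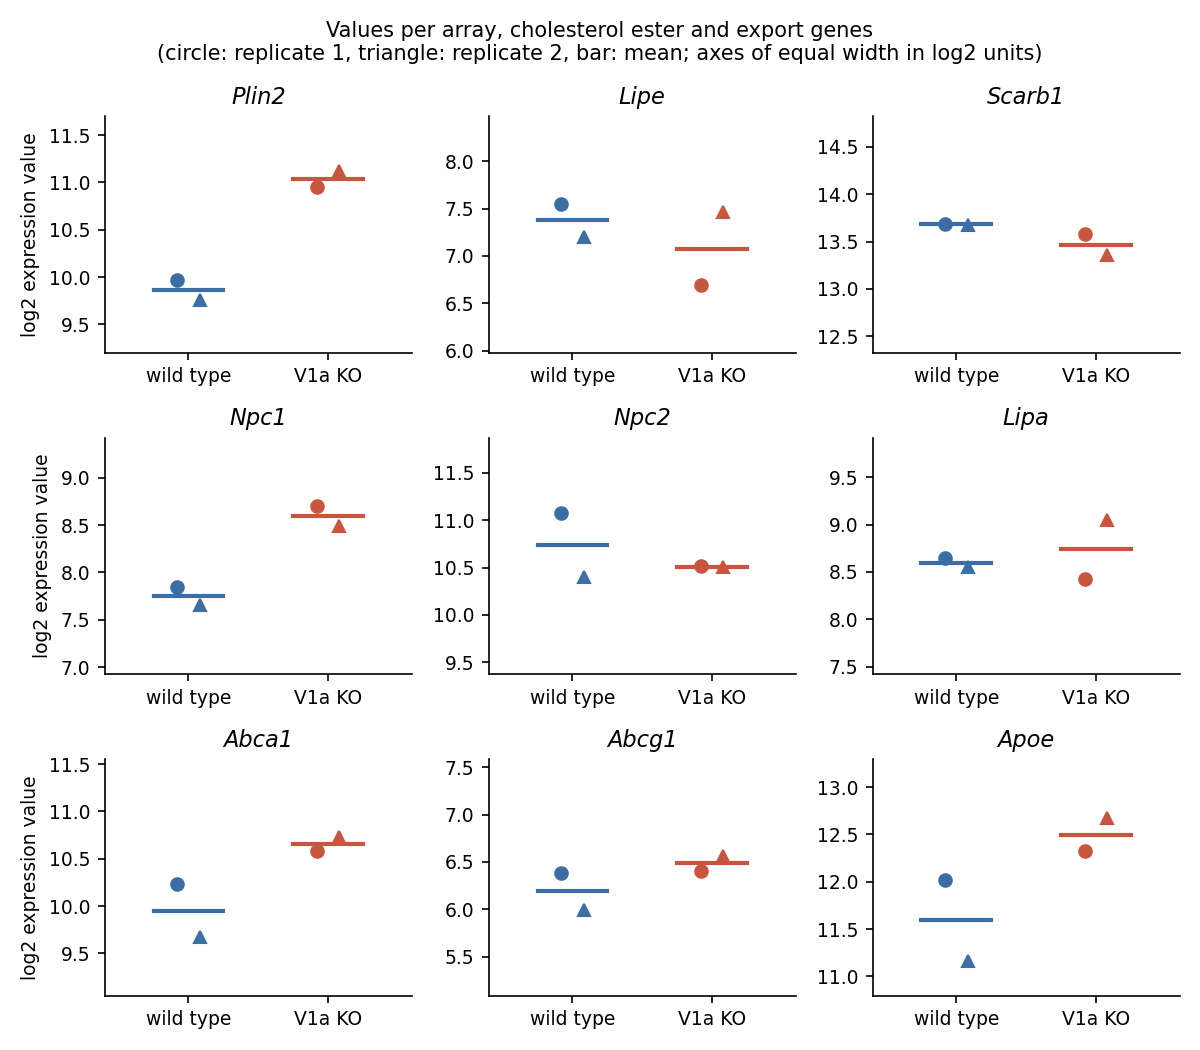
Log2 expression value (vertical axis) of the brightest probe set of each gene on the 2 wild-type and the 2 V1a knockout arrays (circle, replicate 1; triangle, replicate 2; bar, group mean). Plin2 and Npc1 show the 2 groups well apart, with gaps of 0.99 and 0.64 log2 units between the nearest arrays, while the arrays of the 2 groups interleave in Lipe, Npc2 and Lipa.

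Plin2 encodes perilipin 2, which coats the droplets where steroid-making cells store cholesteryl esters and protects their lipid from lipases. Its level was 9.96 and 9.76 log2 units in the wild-type glands, against 10.95 and 11.12 in the knockout glands. Both knockout arrays were thus high, and the gap between the nearest arrays of the 2 groups, 0.99 log2 units, exceeded the 0.21 between the wild-type arrays and the 0.17 between the knockout arrays. The difference was 1.18 (95% interval 0.66 to 1.70, n = 2 per group), a 2.26-fold higher level with an interval of 1.57 to 3.24. Its unadjusted p in limma was 0.00375 and its adjusted p 0.763 over all tested probe sets. In size the difference exceeded 96.4% of all tested probe sets. Leaving out each array in turn gave 1.07 to 1.28, with 1.28 without wild-type array 1, and the unadjusted limma p lay under 0.05 each time, from 0.00735 to 0.0490, with adjusted p from 0.0827 to 1.

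The promoters of Plin2 and Abca1, a droplet gene and an efflux gene that both read higher in the knockout, are shown because they lie at opposite ends of the storage and release route. Sequences are the 250 bases before a listed start of each gene, 5′ to 3′ on the strand of the gene, from RefSeq with build GRCm38.p6. They lie at chr4:86670060-86670309 (minus strand) for Plin2 and at chr4:53159896-53160145 (minus strand) for Abca1. In the gene annotation the 2 genes extend further 5′, to 86670217 and 53159988, so part of each window lies inside the annotated gene. Capitals mark a match to the nuclear receptor element AGGTCA on either strand.
Plin2: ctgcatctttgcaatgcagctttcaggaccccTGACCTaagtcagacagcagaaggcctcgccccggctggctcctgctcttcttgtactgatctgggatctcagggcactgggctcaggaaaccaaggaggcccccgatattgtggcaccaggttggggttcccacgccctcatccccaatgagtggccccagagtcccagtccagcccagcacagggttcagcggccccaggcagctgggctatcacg
Abca1: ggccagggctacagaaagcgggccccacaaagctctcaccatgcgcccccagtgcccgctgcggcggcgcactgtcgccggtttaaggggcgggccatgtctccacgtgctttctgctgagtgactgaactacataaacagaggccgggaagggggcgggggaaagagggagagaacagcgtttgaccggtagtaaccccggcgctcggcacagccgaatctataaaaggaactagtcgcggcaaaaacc

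Promoters of 7 of the 10 genes were matched by gene symbol (Plin2, Soat1, Lipe, Npc2, Lipa, Abca1 and Apoe). They gave 10 windows in all, because Lipe and Apoe are listed with several starts. The element AGGTCA was found once, in Plin2, on the opposite strand from 218 to 213 bases before the start, and 14.0% of the 32851 promoter windows of that length hold it. No window of these genes held the sterol element TCACCCCAC (0.496% of all windows), the lysosomal gene core TCACGTGA (0.785%) or the SF-1 site CAAGGTCA (1.33%, which contains AGGTCA), on either strand. The same was true of DR4, 2 copies of AGGTCA 4 bases apart with at most 1 mismatch in each (1.48% of all windows), a search added after the sequences had been read. That limit passes over less exact pairs, such as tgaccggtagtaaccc in the Abca1 window shown, with more than 1 mismatch in a copy. The search therefore does not show that the windows lack a DR4 element.

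The receptor for HDL, Scarb1, was read by 3 probe sets that lay close to the highest values on the arrays (14.7 to 14.9), a range in which array signals can saturate. The brightest one gave 13.68 on both wild-type arrays, against 13.58 and 13.35 in the knockout. On the second the values were 13.71 and 13.67 against 13.53 and 13.25, and on the third 12.99 and 13.07 against 12.74 and 12.56. All 3 had both knockout arrays below both wild-type arrays, as in 20.0% of all tested probe sets, and in each of the 3 knockout array 2 was the lowest. The differences were -0.21 (SE 0.17), -0.31 (SE 0.19) and -0.38 (SE 0.17), with the 95% interval of the third reaching from -0.86 to 0.10. In limma their unadjusted p values were 0.293, 0.179 and 0.0915, and each had an adjusted p of 0.794. The 3 differences were -0.21, -0.29 and -0.42 without wild-type array 1. On the brightest probe set the difference was -0.10 without knockout array 2 and -0.33 without knockout array 1. After quantile normalization the groups overlapped on the brightest probe set, whose difference was then -0.14. Probe sets of 1 gene are repeat readings of the same samples, so the 3 do not add replicates. Of the 8 adrenocortical markers 3 also lay lower on both knockout arrays, 0 lay higher and 5 overlapped, beside 20.5% and 17.1% of all genes. Their median difference was -0.10, or -0.06 without wild-type array 1, and the part of these cells in the Scarb1 values was not tested.

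Lipe encodes hormone-sensitive lipase, the neutral cholesteryl ester hydrolase of steroid-making cells and also a lipase of fat cells. Wild-type glands had 7.55 and 7.20 on its tested probe set, against 6.69 and 7.46 in knockout glands, so that knockout array 1 was low and the groups overlapped. The difference was -0.30 (SE 0.35), with a 95% interval from -1.29 to 0.69. Without knockout array 1 it was 0.09, without knockout array 2 it was -0.69 and without wild-type array 1 it was -0.13. The summed level of 9 tested adipocyte markers was lowest on knockout array 1 too, at 12.80 log2 units, against 14.17 on knockout array 2 and 13.34 to 13.77 in wild type. Of the 9 markers 3 lay below both wild-type arrays on both knockout arrays, Slc2a4 (-1.56), Ucp1 (-4.29) and Cidea (-3.57), 0 lay above and 6 overlapped, where 20.5% and 17.1% of all genes lay below and above. Adipoq, which overlapped, had 9.60 and 8.84 in wild type against 7.76 and 10.16 in the knockout, while Lep was at 2.30 on every array, and the part of these cells in the Lipe and Lipa values was not tested. The other probe set of Lipe stayed at 2.31 to 2.34 and was not tested.

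Lipa, the lysosomal acid lipase that frees cholesterol from endocytosed esters, gave 3 probe sets that disagreed in direction. On the brightest, wild-type glands had 8.64 and 8.55 against 8.43 and 9.05 in knockout glands, on the next 7.29 and 7.06 against 6.68 and 7.62, and on the dimmest 6.28 and 5.48 against 5.16 and 5.81. Their differences were 0.14 (SE 0.28), -0.02 (SE 0.39) and -0.39 (SE 0.41). On each of them knockout array 1 was the lowest array and knockout array 2 lay 0.62 to 0.94 above it, a wider gap than any of the 3 differences between genotypes. Without knockout array 2 the difference on the brightest probe set turned to -0.17. All 3 differences were above 0 without wild-type array 1, at 0.19, 0.09 and 0.01.

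Npc1 encodes the membrane protein that moves cholesterol out of lysosomes. On its single probe set the wild-type values were 7.85 and 7.66, and the knockout values 8.70 and 8.49. Both knockout arrays were high, with 0.64 log2 units between the nearest arrays of the 2 groups and 0.19 and 0.21 within them. The difference was 0.84 (95% interval 0.31 to 1.37), or 1.79-fold (1.24 to 2.59), with an unadjusted p of 0.0126 and an adjusted p of 0.794 in limma. It was 0.94 without wild-type array 1 and lay between 0.73 and 0.95 with any 1 array left out, but without knockout array 1 or 2 the unadjusted limma p was 0.110 and 0.0654.

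Npc2 encodes the soluble partner that hands cholesterol to NPC1 inside the lysosome. On all 4 arrays its groups overlapped, and its sign, unlike that of Npc1, turned when wild-type array 1 was left out. On the brightest of its 3 tested probe sets the wild-type values were 11.07 and 10.40, against 10.52 and 10.50. On the second the readings were 10.76 and 10.50 against 10.50 and 10.60, and on the third 6.39 and 5.56 against 5.80 and 5.63. Wild-type array 1 was the highest array and wild-type array 2 the lowest on all 3, with both knockout arrays between them. The differences were -0.23 (SE 0.29), -0.08 (SE 0.18) and -0.27 (SE 0.35). On the brightest probe set the difference was 0.11 without wild-type array 1 and -0.56 without wild-type array 2, so its sign rests on which wild-type array is kept. The other 2 tested probe sets gave 0.05 and 0.15 without wild-type array 1. A further probe set of Npc2 was at 2.31 on all 4 arrays.

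Abca1 encodes the transporter that loads cholesterol onto lipid-poor apolipoproteins and is a known target of the oxysterol receptors LXR. Values on its brightest probe set were 10.23 and 9.67 for wild type, then 10.58 and 10.73 for the knockout. The 2 groups did not overlap, by 0.35 log2 units, but the wild-type arrays themselves were 0.56 apart. The difference was 0.71 (95% interval -0.04 to 1.46), a 1.63-fold higher level, with an unadjusted p of 0.0583 and an adjusted p of 0.794 in limma. Without wild-type array 1 it was 0.99, and without wild-type array 2 it was 0.43. The second probe set of Abca1, near the filter, read 4.67 and 3.15 against 4.56 and 3.39, with array 1 of each genotype high and a difference of 0.06 (SE 0.72), and the third stayed at 2.50 to 2.52. On the second the difference was 0.82 without wild-type array 1.

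Abcg1, whose product passes cholesterol to HDL, had 6.39 and 5.99 in wild-type glands against 6.41 and 6.56 in knockout glands. The nearest arrays of the 2 groups were only 0.02 log2 units apart, far less than the 0.40 between the wild-type arrays. Its difference was 0.30 (95% interval -0.33 to 0.92, limma adjusted p = 0.794). The value was 0.49 without wild-type array 1 and 0.10 without wild-type array 2. A second probe set read 3.01 to 3.51 and was not tested.

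Apoe encodes apolipoprotein E, which steroid-making cells, macrophages and hepatocytes secrete and which accepts cholesterol from cells. Wild-type glands had 12.02 and 11.17, knockout glands 12.32 and 12.67. Both knockout arrays were above both wild-type ones by 0.30 log2 units, while the wild-type arrays lay 0.86 apart with array 2 the lowest. The difference was 0.91 (95% interval -0.16 to 1.97), a 1.87-fold higher level, with an unadjusted p of 0.0758 and an adjusted p of 0.794 in limma. Without wild-type array 1, the array with hepatocyte markers, it was 1.33, and without wild-type array 2 it was 0.48.

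The summed level of macrophage markers, like Apoe, was highest on knockout array 2. Of 12 markers 11 were tested, with sums of 12.03 and 12.33 log2 units for wild type, then 12.57 and 13.12 for the knockout, and knockout array 2 was the highest array in 7 of the 11. The groups did not overlap in 3 markers that lay higher in the knockout, Cd68 (1.11), Ctss (0.83) and C1qb (2.36, with wild-type array 1 at 6.31 and the other 3 arrays at 9.97 to 10.54), and in 1 that lay lower, Csf1r (-0.22), where 17.1% and 20.5% of all genes lay higher and lower. These 4 differences were 0.78, 0.58, 0.53 and -0.22 without wild-type array 1. C1qa, C1qc, Lyz2, Adgre1, Mrc1, Aif1 and Fcgr1 overlapped, and Cd163 was at 2.44 on every array. The median difference of the 11 was 0.17, or 0.31 without wild-type array 1, and their part in the Apoe and Abca1 values was not tested.

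**Figure D2:**
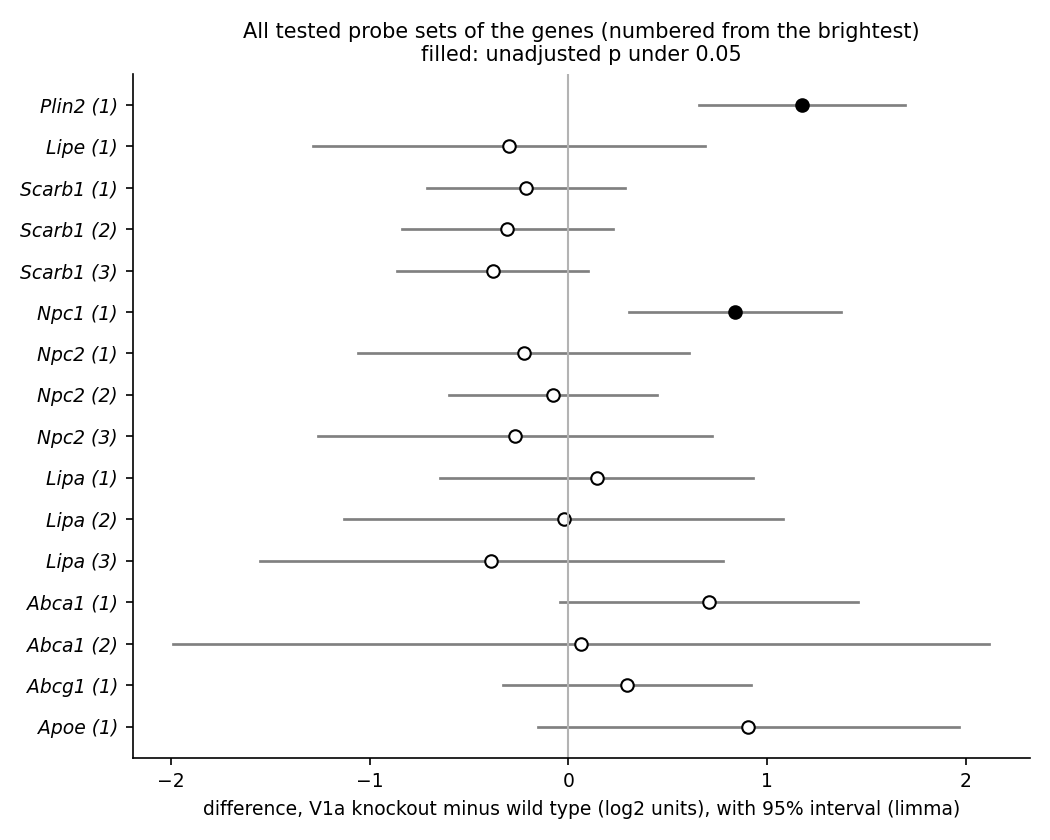
Difference between V1a knockout and wild type in log2 units (horizontal axis) for the 16 tested probe sets, with limma's 95% interval, numbered within a gene from the brightest. Only the probe sets of Plin2 and Npc1 have an unadjusted p under 0.05 (filled points), and the intervals of the other 14 reach across 0.

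Counted over probe sets rather than genes, 5 of the 16 lay higher on both knockout arrays, as in 17.4% of all tested probe sets. Lower on both were 3, all of Scarb1, as in 20.0% of all tested probe sets, and 8 overlapped. Of the 4 genes with more than 1 tested probe set, Scarb1 and Npc2 had a single sign on all of theirs, Abca1 had 1 large and 1 small positive difference, and Lipa had both signs. On the brightest probe sets wild-type array 1 read above wild-type array 2 in all 9 genes, by 0.01 in Scarb1 to 0.86 in Apoe. The same order held in 63.6% of all genes tested. Counted over probe sets it held in 15 of the 16, and the third probe set of Scarb1 went the other way. Since array 1 was the higher one, dropping it moved the differences of Plin2, Npc1, Abca1, Abcg1 and Apoe up, and dropping wild-type array 2 moved them down. In 6 of the 9 genes the sign stayed with any 1 array left out, and in Lipe, Lipa and Npc2 it turned.

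**Figure D3:**
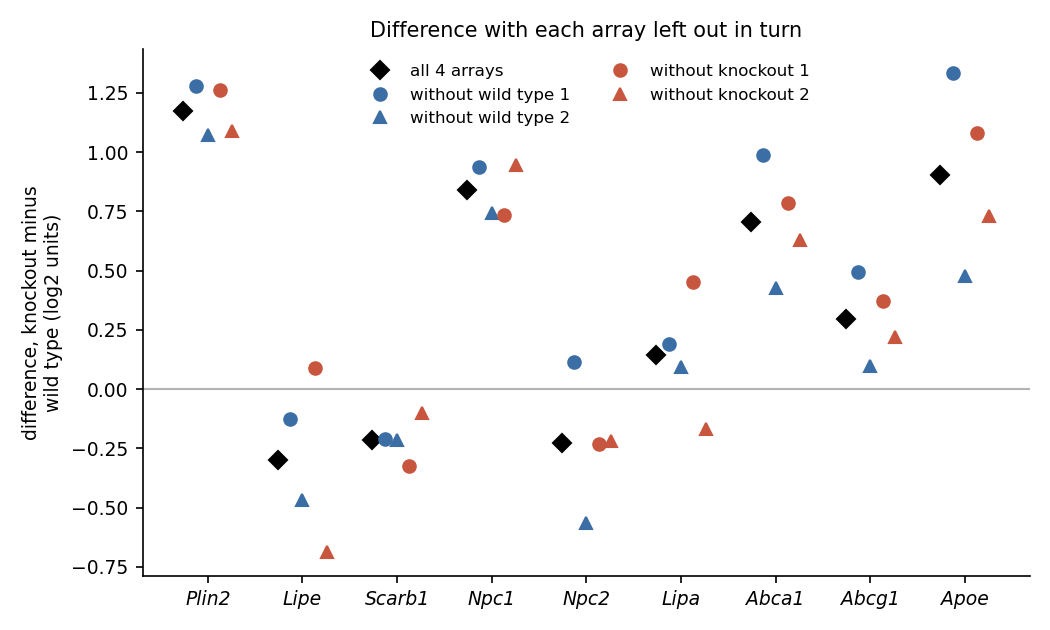
Difference between V1a knockout and wild type in log2 units (vertical axis) for the brightest probe set of each gene, on all 4 arrays (black) and with each array left out in turn (colours and symbols). Plin2 stays between 1.07 and 1.28, Apoe ranges from 0.48 to 1.33, and Lipe, Npc2 and Lipa cross 0.

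Other genes of the same route were taken from 6 lists of 62 genes in all. Of the 62, 57 had a probe set of their own and 47 were tested. Both knockout arrays lay above both wild-type arrays in 2 of the 47, lay below in 9 and overlapped in 36, where 17.1% of all genes lay above and 20.5% below. The difference was positive in 13 of the 47 and negative in 34, and the median was -0.06. Leaving out wild-type array 1, the sign turned in 16 of the 47 and the median was 0.04, equal at 2 decimals to that of all genes. Both knockout arrays then lay above wild-type array 2 in 12 of the 47 and below it in 14, beside 43.4% and 31.9% of all genes. In limma 0 passed the adjusted threshold, and at an unadjusted p under 0.05 there were 0 higher and 1 lower. Over all tested probe sets the unadjusted shares were 2.13% higher and 3.01% lower.

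Among the 8 tested droplet coat and growth genes, none was higher on both knockout arrays and 3 were lower (median difference -0.08, or 0.08 without wild-type array 1), beside 17.1% and 20.5% of all genes. Fitm2, which helps droplets bud from the endoplasmic reticulum, had 9.03 and 8.93 in wild-type glands against 8.19 and 8.51 in knockout glands, which gave -0.62 (SE 0.20). Its limma p was 0.0372 before adjustment and its adjusted p 0.794. Both knockout arrays were below both wild-type arrays, and without wild-type array 1 the difference was -0.57. Cidea, a droplet protein of brown fat, read 9.78, 6.78, 3.37 and 6.06 on wild-type arrays 1 and 2 and knockout arrays 1 and 2. Ucp1, another brown fat gene, had the arrays in the same order, at 10.05, 7.24, 2.80 and 5.91. Cidea differed by -2.07 and Ucp1 by -2.89 when wild-type array 1 was left out. Bscl2, which encodes seipin, differed by -0.47 and Plin5, a perilipin of oxidative tissues, by 0.39, neither at an unadjusted p under 0.05, and without wild-type array 1 by -0.02 and 1.01.

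Enzymes that make esters and neutral lipids overlapped in all 4 tested genes, where 17.1% of all genes lay higher and 20.5% lower. Acsl4, which activates arachidonic acid, had 9.47 and 12.19 in wild-type glands against 11.86 and 12.19 in knockout glands, so that wild-type array 1 alone was low, and without it the difference was -0.17 instead of 1.19. Dgat2, which makes triglyceride, differed by -0.96 (SE 0.88), Dgat1 by -0.26 and Acsl3 by 0.065, and without wild-type array 1 by 0.12, -0.06 and -0.23. In 3 of 7 tested hydrolysis genes both knockout arrays were lower, in 0 higher, beside 20.5% and 17.1% of all genes. The median difference was -0.37, or 0.01 without wild-type array 1. G0s2, an inhibitor of adipose triglyceride lipase, read 8.38 and 7.41 against 6.64 and 7.15, a difference of -1.003 (SE 0.43). Both of its knockout arrays lay below the wild-type arrays, and the difference was -0.52 without wild-type array 1. Abhd5, the activator of the same lipase, differed by -0.37, Pnpla2, the lipase itself, by -0.42 and Nceh1, a neutral cholesteryl ester hydrolase, by -0.27, each with an SE of 0.21 to 0.38. With wild-type array 1 left out these 3 differences were -0.22, 0.01 and -0.36.

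The 3 tested genes of lipoprotein remodelling overlapped, where 17.1% of all genes lay higher and 20.5% lower. Pltp, a phospholipid transfer protein, differed by 1.09 (SE 0.67), Cd36 by 0.05 and Lpl by 0.00. Pltp was low on wild-type array 1 alone, at 6.91 against 8.63 to 9.09 on the other 3 arrays, and without it differed by 0.23. In the list of lysosome membrane and sterol transport genes 15 of 17 overlapped, 1 lay higher and 1 lower (17.1% and 20.5% of all genes), and the median was -0.12, or 0.00 without wild-type array 1. Tfeb, a transcription factor of lysosomal genes, differed by -0.68 (SE 0.28) and lay lower on both knockout arrays, Osbpl8 lay higher (0.56, SE 0.38), and Osbpl1a and Stard3 differed by -0.53 and -0.43. On the other 3 arrays these 4 differences were -0.36, 0.08, -0.15 and -0.02. Tfeb met the floor of 4 through the wild-type arrays alone, at 4.77 and 4.14 against 3.82 and 3.74 in the knockout. Its place among the lower genes therefore rests on values near that floor. The lysosomal membrane genes Lamp1, Lamp2 and Scarb2 differed by -0.13 (SE 0.18), -0.02 (SE 0.31) and 0.10 (SE 0.47), beside 0.84 in Npc1. Without wild-type array 1 they differed by -0.02, -0.37 and 0.68, beside 0.94 in Npc1.

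In the efflux and LXR list 1 of 8 tested genes lay higher, 2 lay lower and 5 overlapped, beside 17.1% higher and 20.5% lower over all genes. The median was -0.05, or 0.11 without wild-type array 1. The higher one was Apoc1, an apolipoprotein gene in the same cluster as Apoe, with 8.71 and 7.37 in wild-type glands against 8.87 and 10.02 in knockout glands. Wild-type array 2 was its lowest array and knockout array 2 its highest, the same as in Apoe. The difference was 1.41 (SE 0.67, limma adjusted p = 0.794), while Apoc2 of that cluster differed by -0.06 (SE 0.23). Abca7, a relative of Abca1, differed by -0.55 (SE 0.33), Rxrb, a partner of LXR, by -0.28 (SE 0.18) and Lpcat3, which remodels phospholipids, by -0.05 (SE 0.19). When wild-type array 1 was dropped Apoc1 differed by 2.08, Apoc2 by 0.15, Abca7 by -0.15, Rxrb by -0.15 and Lpcat3 by -0.17.

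**Figure D4:**
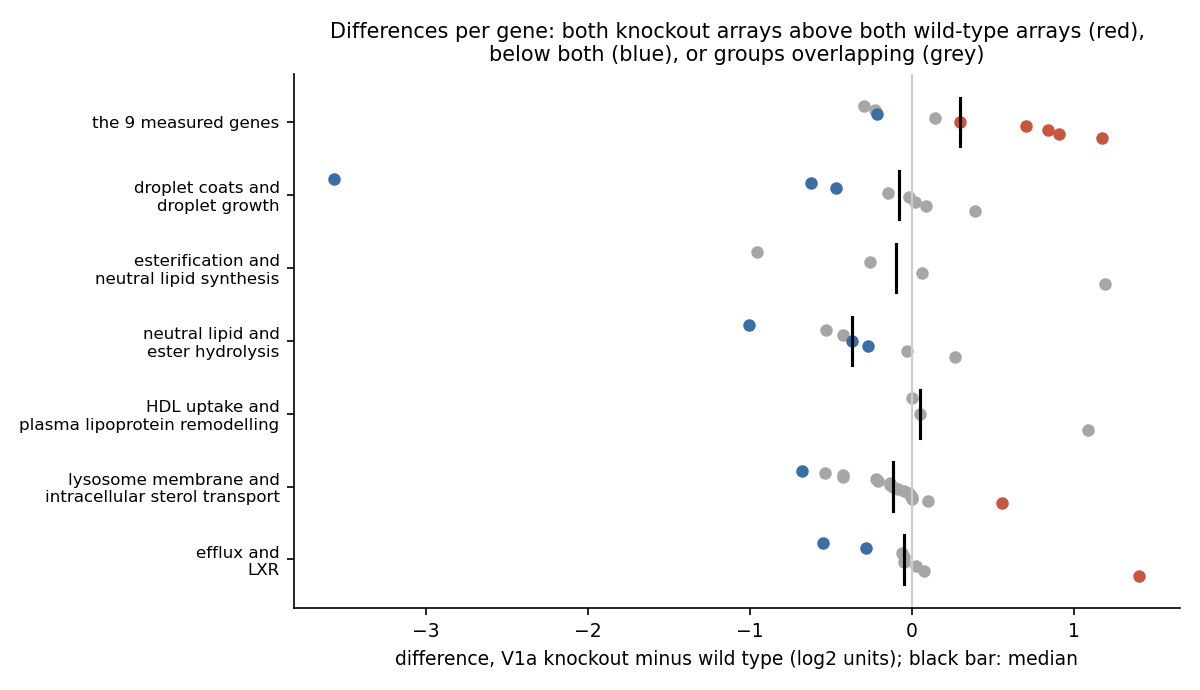
Difference between V1a knockout and wild type in log2 units (horizontal axis), 1 point per gene, for the 9 measured genes and for the tested genes of the 6 lists, with the median as a black bar. Points are red or blue where both knockout arrays lie above or below both wild-type arrays, as in 17.1% and 20.5% of all genes. On the 4 arrays the 9 genes have a median of 0.30 and 5 red points. The lists have medians of -0.37 to 0.05, with 2 red points in all. Without wild-type array 1 (not drawn) the median of the 9 genes is 0.49 and those of the lists are -0.12 to 0.23.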

How the data were processed

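Adrenal RNA from 2 wild-type and 2 V1a knockout samples was read on 1 array each. Per the labels' protocols, the authors turned scanner files into 1 log2 value per probe set with GCRMA (Bioconductor 3.14). That method estimates background from the probes' base content and equalises the arrays, so dim probe sets gather at a floor and their differences shrink. The number of arrays limits the precision.

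After 64 control probe sets were left out, the 17228 probe sets at or above 4 on at least 2 arrays were fitted by lmFit and eBayes (limma 3.58.1, R 4.3.3, genotype only), and p-values were adjusted over all of them by Benjamini-Hochberg. Each SE and 95% interval is limma's. Gene names came from the platform's annotation table, and 34741 of 34945 probe sets with 1 gene matched the gene table of GRCm38.p6. The brightest probe set stood for its gene. Named in the text are all 10 genes and, of each list, up to 4 genes with the smallest p. Lamp1, Lamp2, Scarb2, Apoc2, Ucp1, Slc2a4, Adipoq, Lep and the macrophage markers were singled out with their values known. The genes and lists were chosen with earlier results of these data known. The scripts were tested on simulated data. Alternatives were other filters, quantile normalization, median centring, a variance trend, plain probe sets, the replicate number as a block, each array left out, a test against a 2-fold difference, and other rules for the probe set of a gene.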

Additional observations from a re-analysis of the deposited data

How the results depend on the processing

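No member probe set passed an adjusted p of 0.05 in limma under any alternative run on all 4 arrays or with 1 left out, where the spread of a lone array is taken from the other genotype. The lowest adjusted p was 0.0827, in Plin2 without wild-type array 2. Plin2, Npc1, Abca1, Abcg1, Apoe and Scarb1 kept their sign under every alternative that gave them a value. Lipa turned to -0.024 with plain probe sets only, -0.090 as the mean of its probe sets, -0.39 on its probe set with the largest spread and, leaving out each array, ranged from -0.17 to 0.45. Leave-one-out ranges were -0.69 to 0.089 for Lipe and -0.56 to 0.11 for Npc2. Abca1 was 0.39 as the mean of its 2 tested probe sets and 0.06 on the one with the larger spread.

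The count of genes higher on both knockout arrays was 4 instead of 5 with plain probe sets only, which hold no probe set of Scarb1 or Apoe. It was also 4 with the mean of the tested probe sets and with the probe set of largest spread, and 5 to 6 leaving out each array. The count of genes lower on both was 0 instead of 1 with plain probe sets only and with quantile normalization, and 1 to 3 leaving out each array. Over all probe sets, limma called 2 instead of 0 with the 6 log2 filter, median centring or plain probe sets only (Adi1 and Xaf1, named after their values were seen). At an unadjusted p under 0.05 there were 885, 1545 without a filter, and 169 to 6507 leaving out each array, the highest without wild-type array 2.

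Arrays of the 2 genotypes share replicate numbers, with no label that pairs them (correlation of deviations 0.15 for same-numbered arrays). With the replicate block 684 probe sets had an unadjusted p under 0.05 and 0 passed the adjustment.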
